A study of Mus musculus with 12 samples.

Results

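A set of 351 cJun peaks that had an AP-1 site near the summit and lay away from H3K4me3 was examined. The cells were Min6, an insulinoma cell line of the mouse that stands in for the pancreatic beta cell. The regions were selected on the DMSO lists themselves: a cJun peak called in both DMSO replicates, no base of overlap with a DMSO H3K4me3 peak, and the 7-base site TGANTCA with C or G at its centre lying wholly within 100 bp of the peak summit on GRCm38. They made up 351 of 4960 DMSO cJun peaks (7.08%, 95% Wilson interval 6.40 to 7.82) and 351 of the 2311 that lay outside H3K4me3 (15.2%, 13.8 to 16.7). The peak counts, p-values and AP-1 content in DMSO chose these members and are given as description only. The site need not lie inside the peak: 348 members held a site in the merged peak. The nearest site lay inside both replicates' peaks in 262 (74.6%).

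Every sample came from Min6 cells that received either the JNK inhibitor SP600125 (JNKi) at 20 µM or its DMSO vehicle for 48 h, with 550000 cells per CUT&RUN reaction. Each treatment had 2 biological replicates with an antibody to cJun, 2 with an antibody to H3K4me3 and 2 with IgG, which made 12 samples. The replicates of each cJun and H3K4me3 group were merged by the authors into 1 list, so a list-level value has no replicate error, and the intervals and tests below are taken across peaks, which are not replicates of a treatment. The 2 DMSO replicates are called first and second in the order of the columns, which carry no replicate number. The JNKi cJun list held 1632 peaks, and the H3K4me3 lists held 19372 peaks in DMSO and 19032 in JNKi. H3K4me3 lay over a start of 9 of 10 beta-cell markers in DMSO, with Ins1 the exception, over 3 of 4 alpha-cell markers and 2 of 4 ductal markers, and over none of 5 acinar, 4 fibroblast and 4 macrophage markers. The study states a common sequencing depth per sample. No total read count was used here, so the usable depth of each library is unknown.

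cJun is a basic leucine zipper protein that pairs with Fos, Jun or ATF family members to form AP-1, and JNK phosphorylates its activation domain. AP-1 dimers bind the palindrome-like TRE site searched for here, while the related CRE site has one more central base. H3K4me3 marks active promoters, and AP-1 is known for binding distal enhancers, which usually lack this mark.

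The sequences of 3 members with the most sites near the summit are shown first. Each TRE is in capitals on the plus strand of GRCm38 and all other bases are in lower case.
Twsg1 member, chr17:65961735-65961934: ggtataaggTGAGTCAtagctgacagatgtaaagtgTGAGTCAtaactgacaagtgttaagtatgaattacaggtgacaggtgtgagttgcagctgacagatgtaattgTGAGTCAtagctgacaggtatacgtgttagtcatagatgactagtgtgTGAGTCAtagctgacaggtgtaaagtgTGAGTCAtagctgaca
Atxn1 member, chr13:45624125-45624201: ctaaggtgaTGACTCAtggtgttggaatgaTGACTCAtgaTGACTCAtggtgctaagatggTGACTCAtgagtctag
Etnk1 member, chr6:143366037-143366141: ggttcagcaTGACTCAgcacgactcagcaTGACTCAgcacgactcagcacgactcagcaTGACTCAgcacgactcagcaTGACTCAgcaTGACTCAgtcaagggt
The Twsg1 member held 5 sites within 100 bp of its summit and 16 in the whole peak. The Atxn1 member, in an intron of the ataxin-1 gene, held 4 near the summit and 17 in the peak. Another member, not shown, also held 4 near the summit and ranked lower in DMSO. The Etnk1 member held 5, all in the stretch shown. Soft masking of the reference covered 6.5% of the first stretch and none of the other two.

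A further 6 stretches, each centred on the site nearest to the summit, belong to members that were strong in DMSO or in JNKi.
Nell2 member, chr15:95276841-95276901: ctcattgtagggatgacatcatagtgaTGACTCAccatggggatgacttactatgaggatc
Tmem65 member, chr15:58747048-58747108: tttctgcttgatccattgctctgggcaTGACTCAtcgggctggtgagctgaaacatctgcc
Coil member, chr11:88969101-88969161: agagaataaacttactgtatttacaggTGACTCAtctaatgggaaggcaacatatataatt
Xylt1 member, chr7:117091056-117091116: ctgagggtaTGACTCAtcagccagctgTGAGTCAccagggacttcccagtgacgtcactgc
Camta1 member, chr4:151498420-151498480: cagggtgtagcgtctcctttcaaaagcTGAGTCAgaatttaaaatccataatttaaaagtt
Sfi1 member, chr11:3159851-3159911: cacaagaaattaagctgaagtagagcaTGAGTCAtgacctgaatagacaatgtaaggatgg
The Xylt1 stretch holds a pair of TREs, and a CRE (TGACGTCA) can be read in lower case to their right. The Sfi1 member was the strongest without a JNKi peak, and the Camta1 member was weak in 1 DMSO replicate and strong in JNKi.

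In all, 303 members held 1 site within 100 bp of the summit, 40 held 2, 4 held 3, 2 held 4 and 2 held 5, for 413 sites. The whole peaks held 554. In the 48 members with 2 or more, neighbouring site centres were a median of 30 bp apart, and the closest were 10 bp apart. By contrast, 3.12% of the 13171266 windows of the same length tiled over the genome held the site, so 15.2% of the cJun peaks outside H3K4me3 is a higher share, which the rule counts and which was not tested.

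Peak strength varied widely among members. The −log10 p of the peak caller ranged from 3.23 to 73.2 in the first DMSO replicate (median 7.89) and from 3.01 to 56.3 in the second (median 7.096). It was higher in the first replicate in 200 members (57.0%), and the ranks of the members in the 2 replicates correlated with a Spearman rho of 0.463, against 0.357 over the 1960 cJun peaks outside H3K4me3 without the site. This rho runs across peaks of the same library pair. In all, 31 members (8.83%) had an irreproducible discovery rate (IDR, the authors' measure of rank agreement between replicates) of 0.05 or lower, near the 445 of 4960 (8.97%) of the whole DMSO cJun list, and 17 (4.84%, against 4.17% of the list) had 0.01 or lower. The median rank percentile was 54.0 among members and 48.7 among the 1960, and the median width was 689 and 655 bp.

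**Figure D1:**
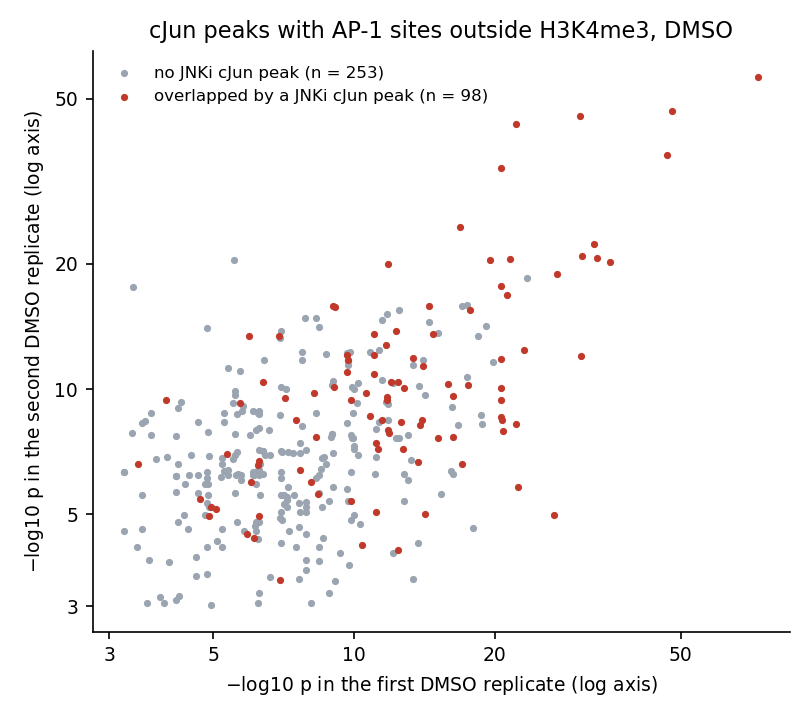
Each of the 351 members is plotted by its −log10 p in the first (x axis) and second (y axis) DMSO replicate, on log axes, and coloured by whether a JNKi cJun peak overlapped it. The 98 overlapped members hold all the points with a value above 23.4 in the first replicate or 20.5 in the second.

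The 8 strongest members were all overlapped by a JNKi cJun peak. The member nearest to Twsg1, a modulator of BMP signalling, spanned chr17:65960569-65962854 and had −log10 p of 73.2 and 56.3 in the DMSO replicates and 99.3 and 45.3 in the JNKi replicates. It lay 10486 bp from the Twsg1 start and 9252 bp from the nearest H3K4me3 peak. A member in an intron of Nell2, which encodes a secreted neural EGF-like protein, had 48.0 and 46.7 in DMSO and 23.6 and 15.9 in JNKi. The Atxn1 intron member had 46.8 and 36.5 in DMSO and 23.9 and 17.9 in JNKi. All 3 had replicate summits within 4 bp of each other in DMSO. The values are not comparable between the lists because p depends on usable depth, which is unknown for each library.

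The other 5 of the 8 were less even. A member in an intron of Commd10 had −log10 p of 30.4 and 45.4 in DMSO. The Tmem65 member, at 32.7 and 22.4, was overlapped by a JNKi H3K4me3 peak, while the nearest DMSO one was 70830 bp away. A member in the promoter (within 3 kb of a start) of the non-coding Gm5444, with Akr1e1 as the nearest protein-coding gene, had 22.2 and 43.3. The Coil member lay 1310 bp from the start of the coilin gene, an organizer of Cajal bodies, and 4142 bp from the nearest H3K4me3 peak, with 30.8 and 20.9. The Xylt1 member, 289736 bp from the start of a xylosyltransferase gene of proteoglycan synthesis, had 33.1 and 20.7.

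Among the strongest members without a JNKi cJun peak, the Sfi1 intron member had 23.4 and 18.5 in the DMSO replicates. A member in the non-coding Gm14266 had 16.99 and 15.8. A member inside Mir99ahg, host of a microRNA cluster, and 640 bp from the start of Gm11146 had 14.4 and 14.5, and a member 3918 bp from the start of Dgkg, a diacylglycerol kinase gene, had 19.2 and 14.2. These 4 lay below the Twsg1, Nell2 and Atxn1 members in both replicates.

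The position of AP-1 sites was next measured over all peaks, whether chosen by the rule or not. Around the summit that the first DMSO replicate gave to each of the 2311 peaks outside H3K4me3, AP-1 sites occurred at 27.3 per 100 kb within 50 bp, 77.02 at 50 to 100 bp, 164 at 100 to 150 bp, 215 at 150 to 200 bp, 112 at 200 to 250 bp and 24.4 at 500 to 600 bp. The second replicate's summits gave 31.6, 84.4, 183, 200.8, 107 and 26.4 for the same ranges. The genome as a whole held 15.9 per 100 kb. The sites were therefore densest at 100 to 200 bp from each replicate's own summit and sparse directly beneath it. The JNKi list, which the rule did not use, gave 39.9 within 50 bp and 245 at 150 to 200 bp of its first replicate's summits, and 60.5 and 204 for its second. The pattern was not particular to peaks outside H3K4me3: the 2649 DMSO cJun peaks at H3K4me3 had 13.97 within 50 bp and 60.8 at 150 to 200 bp of the first replicate's summits, and 13.6 and 62.7 for the second.

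**Figure D2:**
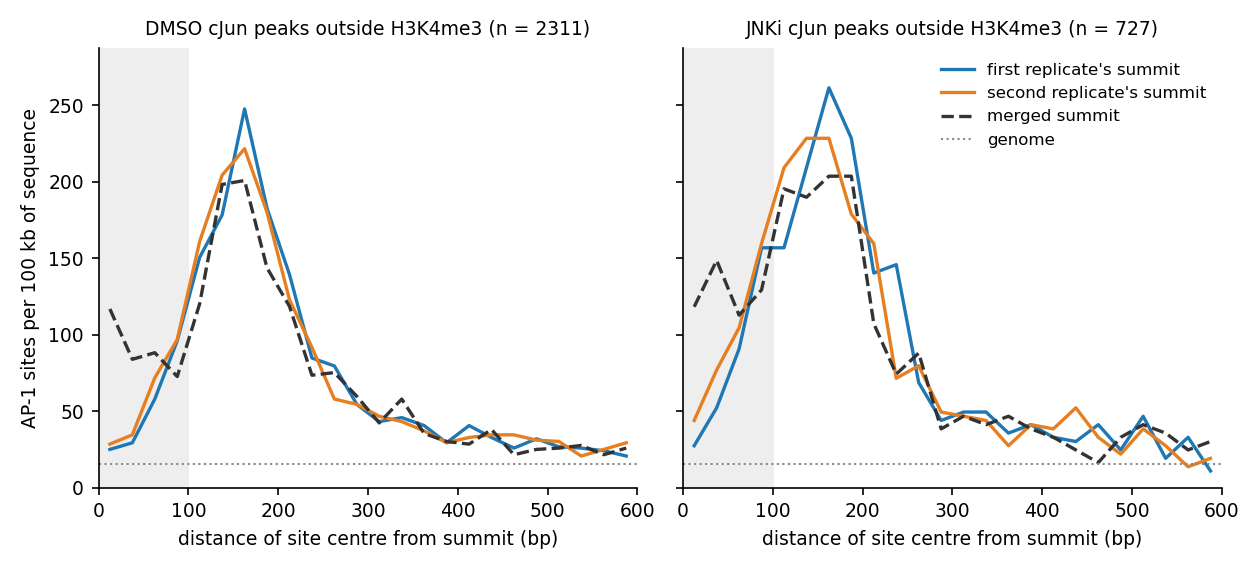
AP-1 sites per 100 kb of sequence (y axis) are plotted by the distance of the site centre from the summit in bp (x axis, bins of 25 bp) for cJun peaks outside H3K4me3 in DMSO (left, n = 2311) and JNKi (right, n = 727). Solid lines are the summits of each replicate, the dashed line is the merged summit, the dotted line is the genome at 15.9, and the grey band is the window of the rule: each solid line is low near 0 and highest between 100 and 200 bp.

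The merged summit that the rule used was the mean of the replicate summits, to within 1 bp, in 326 of 351 members (92.9%). Around merged summits the density was 100 within 50 bp, 80.5 at 50 to 100 bp and 172 at 150 to 200 bp. The nearest site of a member lay a median of 41 bp from the merged summit but 131 bp from the first replicate's summit and 124 bp from the second's, and within 50 bp of those in only 47 (13.4%) and 43 (12.3%) members. The replicate summits stood at least 200 bp apart in 215 members (61.3%) and in 530 of the 1960 peaks without the site (27.04%), with medians of 264 and 68 bp. A window around the mean of 2 summits favours summits that stand apart on either side of a site, so this contrast is no finding about the members. The same window gave 74 of 145 (51.0%) among AP-1 peaks at H3K4me3 and 81 of 141 (57.4%) among the JNKi peaks chosen by the same rule. In 210 of those 215 the site lay between the 2 summits, which the rule fixes wherever the merged summit is their mean, so this count is no finding. The distances of members' sites to the DMSO replicate summits also follow in part from the rule and are given without a test.

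**Figure D3:**
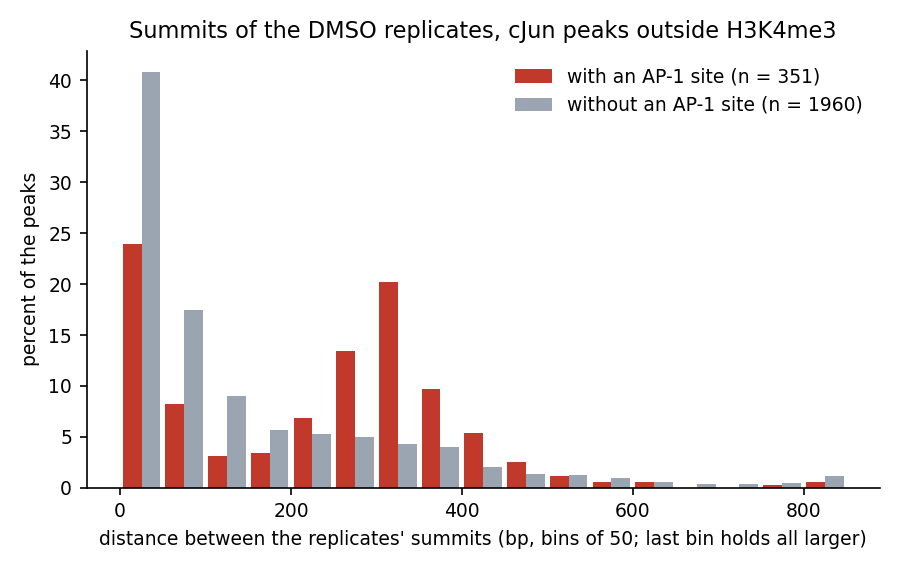
The distance between the summits of the DMSO replicates (x axis, bp, bins of 50) is plotted as a percent of the 351 members and of the 1960 cJun peaks outside H3K4me3 without the site (y axis). Members have a second group of distances around 250 to 400 bp, and 61.3% of them are at 200 bp or more against 27.04%, a contrast that the choice of members by the mean summit favours.

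The window of the rule therefore left out many peaks with a site close by. Of the 1960 peaks without one in the window, 568 (29.0%) had the nearest centre 98 to 200 bp from the merged summit, and 708 (36.1%) held a site somewhere in the peak. Over the whole peak, 1056 of 2311 (45.7%) held one. Just inside the window were 21 peaks with the nearest site at 91 to 97 bp, and just outside were 25 at 98 to 104 bp. The member with the farthest site, at chr7:135996780-135997325, had it at 97 bp and −log10 p of 5.37 and 11.2, and the first excluded peak, at chr9:62488545-62489137, had it at 98 bp with 9.67 and 7.49. When the window was drawn around either replicate's summit, 350 peaks were chosen, of which 206 were members.

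The bases beside the site were not used by the rule and differed from those of the genome. The base before TGA, read inward from both ends of the 413 sites, was A in 330 of 826 cases (40.0%) and G in 275 (33.3%), and T in 54 (6.54%). Over all 433145 sites of the genome, A stood there in 25.2%, G in 22.3%, C in 31.3% and T in 21.2%. The full form ATGANTCAT occurred in 69 of the 413 sites (16.7%, 13.4 to 20.6) and in 25588 of the other 432732 genomic sites (5.91%), an odds ratio of 3.19 (two-sided Fisher's exact p = 9.51e-15, adjusted p = 2.19e-13 over 23 tests). Of the stretches printed above, the Atxn1 member shows the full form at 3 of its 4 sites, and the Tmem65, Xylt1 and Sfi1 members show it once each. Against 154 sites in the 145 AP-1 peaks at H3K4me3, of which 14 (9.09%) had the full form, the odds ratio was 2.01 (Fisher's exact p = 0.0231, adjusted p = 0.265). Sites of the same peak are not independent. With only the site nearest the summit of each peak, 56 of 351 members had the full form. The odds ratio was then 3.02 against the genome (Fisher's exact p = 1.84e-11, unadjusted). Against 12 of 145 peaks at H3K4me3 it was 2.10 (Fisher's exact p = 0.0305, unadjusted). GC before the site, as in MAF-type elements, was found in 49 sites (11.9%), against 12.6% of the genome (odds ratio 0.934, Fisher's exact adjusted p = 0.783).

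The AP-1 site, which the rule fixes, was not tested, and none of the other motifs passed the test. In all, 13 short motifs were searched on both strands within 100 bp of the summit in the members and in the 1960 peaks without the AP-1 site, and the lowest adjusted p was 0.272. The CRE, TGACGTCA, was held by 5 members (1.42%) and 8 of the 1960 (0.408%), an odds ratio of 3.53 (Fisher's exact p = 0.0354, adjusted p = 0.272), and by 0.106% of genomic windows. The MAF element TGCTGAC was held by 26 members (7.41%) and 95 others (4.85%), with a Fisher's exact adjusted p of 0.295, and by 2.70% of windows. Its last letters, TGAC, are part of every AP-1 site, so the rule favours it in members and this comparison is no finding about them. The forkhead motif TGTTTAC was held by 24 members (6.84%) against 98 of the 1960, the TEAD motif GGAATG by 42 (11.97%) against 10.2%, the E-box CAGATG used by NEUROD1-type factors by 86 (24.5%) against 23.2%, and the homeodomain core TAATTA by 34 (9.69%) against 7.55%. The remaining motifs were RUNX (TGTGGTT, 10 members), ETS (CCGGAAG, 1), RFX (GTTGCCA, 8), NKX2 (CACTTGA, 9), SP/KLF (GGGCGGG, 4), a CTCF part (AGGGGGC, 6) and SOX (AACAATG, 16). Their genomic shares were 4.69%, 0.562%, 1.82%, 2.91%, 0.972%, 1.55% and 4.01%, and the FOX, TEAD, E-box and homeodomain motifs had 3.01%, 10.9%, 15.1% and 7.24%. A motif match is a run of letters and not a bound site.

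The rule leaves out peaks over H3K4me3, a mark of promoters, so a low share of promoters among members is largely built in. The midpoint was within 3 kb of a transcription start in 40 members (11.4%), against 2078 of all 4960 DMSO cJun peaks (41.9%), in an intron in 152 (43.3%), between genes in 155 (44.2%) and in an exon in 4. The peaks without the site had 11.6% at promoters, with a difference of −0.24 percentage points (95% interval −3.51 to 3.75, Fisher's exact p = 1), 44.9% in introns (p = 0.600) and 41.2% between genes (p = 0.318). With the site within 100 bp of either replicate's summit, an alternative chosen after seeing the data, the promoter share was 52 of 350 against 216 of 1961 (odds ratio 1.41 in place of 0.977, unadjusted Fisher's exact p = 0.0458), and the odds ratio between genes went from 1.13 to 0.977. The nearest H3K4me3 peak was a median of 40712 bp away (41432 bp for the 1960), over 10 kb away for 292 members (83.2%), and 174 bp away for the closest, at chr11:102964932-102965534. On the other side of that limit, the AP-1 peak with the smallest overlap shared 86 bp with an H3K4me3 peak, at chr5:142557652-142558022. The median distance to a protein-coding start was 49168 bp, and 310 members (88.3%) were over 10 kb from one. GC content within 100 bp of the summit had a median of 46.8% in both groups, and 26 members (7.41%) against 229 of 1960 (11.7%) had the summit in a soft-masked repeat. X held 2 members, near Smarca1 and Sytl5, and Y held 0.

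Under JNKi, 98 of the 351 members (27.9%, 23.5 to 32.8) were overlapped by a cJun peak. The share over all DMSO cJun peaks was 23.6%, and over those outside H3K4me3 it was 24.5%, so the members stood near the background. Without the site in the window it was 469 of 1960 (23.9%), a difference of 3.99 percentage points (−0.85 to 9.24, odds ratio 1.23, Fisher's exact p = 0.121, adjusted p = 0.446). Against the 145 AP-1 peaks at H3K4me3, of which 44 (30.3%) were overlapped, the difference was −2.42 points (−11.5 to 6.04, odds ratio 0.889, Fisher's exact adjusted p = 0.765). Of the 1960, 708 held a site elsewhere in the peak, and against the peaks with no site anywhere, of which 228 of 1252 were overlapped, the odds ratio was 1.74 (Fisher's exact p = 0.000122, unadjusted, chosen after seeing the data). The comparison also depended on other definitions: the odds ratio was 1.54 (p = 0.00261) with a 50% reciprocal overlap, 1.35 (p = 0.0320) with summits within 200 bp of each other, and 2.13 (p = 1.29e-14) with the site anywhere in the peak, where peaks with a site were wider (median 739.5 against 596 bp), but 0.914 (p = 0.544) with the window around either replicate's summit and 0.656 (p = 0.351) at an IDR of 0.05 or lower, all by Fisher's exact test and unadjusted. The JNKi list held fewer peaks in all, and a lost peak cannot be told apart from a weaker call at another depth.

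Among members, overlap followed strength in DMSO. With the DMSO list split by rank into 3 equal parts, 13 of 104 members (12.5%) were overlapped in the lowest part, 20 of 122 (16.4%) in the middle one and 65 of 125 (52.0%) in the highest. Peaks without the site had 11.6%, 15.98% and 46.1%, while AP-1 peaks at H3K4me3 had no steady rise, with 14 of 48 (29.2%), 8 of 44 (18.2%) and 22 of 53 (41.5%). At an IDR of 0.05 or lower it was 22 of 31 members (71.0%) and 123 of 156 others (78.8%), and at 0.01 or lower 16 of 17 and 61 of 65. Overlapped members were wider in DMSO, at a median of 911.5 bp against 628 bp, and had a median −log10 p of 11.9 and 9.55 in the replicates against 6.99 and 6.61. Members with 2 or more sites were overlapped in 19 of 48 cases (39.6%, 27.02 to 53.7) and those with 1 site in 79 of 303 (26.1%, 21.5 to 31.3), a difference that was not tested.

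**Figure D4:**
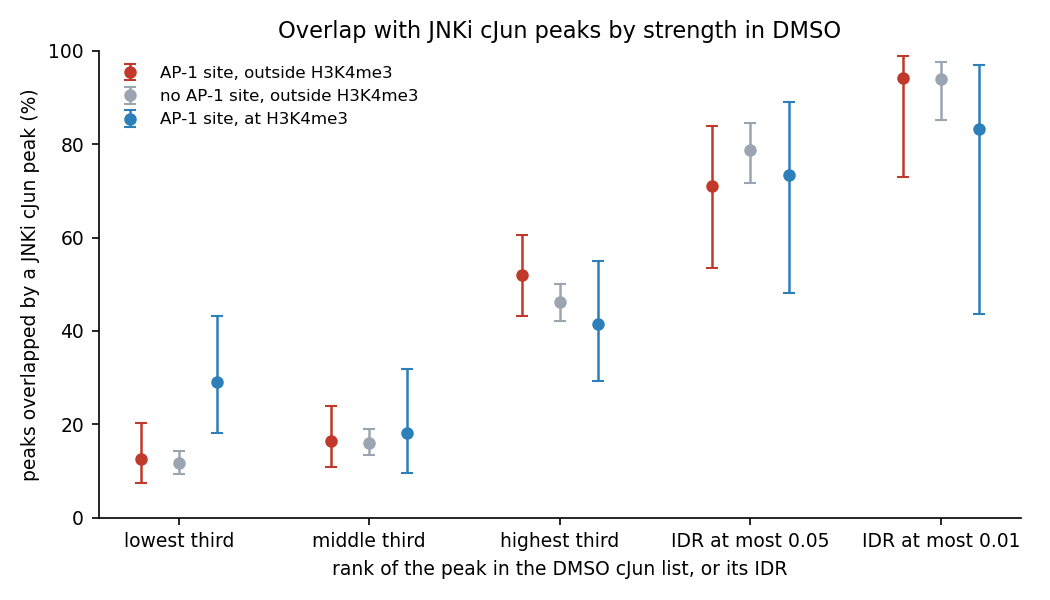
The percent of peaks overlapped by a JNKi cJun peak (y axis) is plotted by rank in the DMSO cJun list, split into 3 equal parts, and by IDR (x axis) for members, for peaks outside H3K4me3 without the site and for AP-1 peaks at H3K4me3, with 95% Wilson intervals across peaks as bars. Members rise from 12.5% in the lowest part to 94.1% at an IDR of 0.01 or lower, and their intervals overlap those of the peaks without the site throughout.

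The JNKi cJun peaks at these 98 members covered the AP-1 site in 92 cases. They lay outside JNKi H3K4me3 in 89 and had an IDR of 0.05 or lower in 14. Their median width in JNKi was 733.5 bp. These counts were not compared with those of other JNKi cJun peaks and are no result about the members. The site was again set off from the summits, at a median of 154.5 bp from the first JNKi replicate's and 141.5 bp from the second's. It was within 50 bp of them in 11 (11.2%) and 15 (15.3%) members. A JNKi summit of its own had a site within 100 bp in 49 of the 98. The member of highest JNKi rank without high DMSO rank lay in an intron of Camta1, a calmodulin-binding transcription activator gene: its −log10 p was 26.8 and 4.97 in the DMSO replicates and 22.7 and 21.9 in the JNKi replicates. The DMSO replicates were thus far apart and the JNKi replicates close together.

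The same rule applied to the JNKi lists chose 141 of 1632 peaks, or 141 of the 727 outside JNKi H3K4me3 (19.4%). Of these 109 (77.3%) overlapped a DMSO cJun peak, where 72.0% of all JNKi cJun peaks and 457 of the 586 outside H3K4me3 without the site (78.0%) did. Only 46 overlapped a member, which is 32.6% of the 141 and 13.1% of the 351.

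Overlap with the JNKi H3K4me3 list was counted next, for members that the rule keeps free of H3K4me3 in DMSO. A JNKi H3K4me3 peak overlapped 18 members (5.13%) and 88 of the 1960 peaks without the site (4.49%), and 4.59% of the 2311 together (odds ratio 1.15, Fisher's exact p = 0.580, adjusted p = 0.765). The members' share was near that background and is no result about them. The 18 included a member in an intron of Scg5, which encodes a secretory-granule chaperone, and a member 1425 bp from the start of the tight-junction gene Cldn6. These genes were chosen after their values were seen. The Cldn6 member was overlapped by JNKi cJun, with −log10 p of 8.14 and 11.8 in the JNKi replicates, and the Scg5 member was not.

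The members were spread over many genes. They were nearest to 321 protein-coding genes, and 28 of these genes were nearest to 2 or more. Another member lay within 50 kb of 25 members. Camta1 and Ksr2, a scaffold gene of Ras and MAP kinase signalling, were nearest to 3 each. The 3 Ksr2 members lay in its introns, with −log10 p in the DMSO replicates of 18.8 and 8.24, 5.50 and 6.79, and 7.89 and 5.21, and none was overlapped in JNKi. The other Camta1 members had 5.72 and 6.04, and 5.72 and 6.21, and were not overlapped either. Among genes with 2 members, chosen after their values were seen, Irs2, an adaptor of insulin and IGF signalling, had members 147702 and 312873 bp from its start, both overlapped in JNKi (12.3 and 13.8, and 11.9 and 19.9, in DMSO). Dusp7, a phosphatase gene of MAP kinases, had members 7242 and 14617 bp from its start, with 3.68 and 7.74, and 6.62 and 3.54, neither overlapped.

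Within 50 kb of a start, 287 of 21755 protein-coding genes (1.32%) had a member. Of 131 genes in 8 lists chosen for beta cells and JNK signalling, 3 did (2.29%). A DMSO cJun peak of any kind lay within 50 kb of 71 of the 131, and of 23.7% of all protein-coding genes. No member lay within 50 kb of the 18 AP-1 family genes, 15 JNK pathway genes or 14 beta-cell transcription factors. The 9 MAP kinase phosphatases on the list (which leaves out Dusp7), 20 integrin and matrix genes and 14 cell cycle genes had no member either. Of 26 islet hormone and secretion genes 2 had a member, Iapp and Syt7, and of 15 immediate early genes 1 did, Gadd45a. Cck, a hormone gene on the same list that the study follows, had no member but did have 1 DMSO cJun peak within 50 kb. That peak, at chr9:121486246-121487454, overlapped H3K4me3, held no AP-1 site and had −log10 p of 7.45 and 3.06 in the DMSO replicates. A JNKi cJun peak overlapped it, which is a call of presence and does not measure a change in signal. The study reported lower cJun signal after JNKi at a region downstream of Cck, a measure not taken here. The AP-1 stretches of the Iapp, Syt7 and Gadd45a members are shown since their genes belong to these lists.
Iapp member, chr6:142281806-142281866: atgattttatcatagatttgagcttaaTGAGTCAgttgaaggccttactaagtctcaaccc
Syt7 member, chr19:10364145-10364205: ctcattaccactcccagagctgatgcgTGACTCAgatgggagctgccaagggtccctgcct
Gadd45a member, chr6:67014583-67014643: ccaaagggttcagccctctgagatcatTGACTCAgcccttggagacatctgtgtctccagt
The member near Iapp, the amylin gene, lay in an intron of Slco1a5, 15513 bp from the Iapp start, with −log10 p of 4.23 and 3.17 in the DMSO replicates. The member near Syt7, a calcium sensor of exocytosis, was 23853 bp away with 8.30 and 14.8, and the one near Gadd45a, a stress-response gene, was 22448 bp away, inside Gng12, with 16.7 and 8.19. None of the 3 was overlapped by a JNKi cJun peak, and the Iapp member was close to the lowest value in the lists.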

How the data were processed

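CUT&RUN peak lists from 12 Min6 samples in 6 groups were grouped by their labels. The titles of the JNKi samples also carry the word control in brackets, and their group was taken from the named treatment. Per the labels and the study's methods, the authors trimmed reads with Trimmomatic, aligned them to GRCm38 with Bowtie2 2.4.2, filtered with SAMtools 1.16, called narrow peaks against IgG with MACS2 2.2.7.1 and merged replicates by IDR (version not given in the sources used here). The deposited lists give −log10 p-values per replicate, −log10 IDR and a score derived from it. The p of a merged peak was the lower of its replicates in 100% of peaks, and the lowest −log10 p was 3.01 in each list, so weak calls are included. Default MACS2 settings, which limit the q-value, are named in the methods. Whether they gave this floor was not tested. Reads and IgG libraries were not analysed here, and the usable depth of each library is unknown. Wilson intervals cover counting error across peaks only.

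The members and gene lists were chosen with earlier results of these data known. Sites and motifs were searched on GRCm38.p6, with GENCODE M21 basic genes and 77161 transcription starts. Overlap meant a shared base. Distances to the nearest gene run from the peak midpoint, and those to listed genes from the peak edge. Members were compared with other peaks by two-sided Fisher's exact tests, Benjamini-Hochberg adjusted over 23 tests, with 95% intervals of differences by Newcombe's method. Named are the 8 strongest members, the 5 strongest without JNKi overlap, the 5 highest in JNKi, the 3 with most sites, those near listed genes and those at the limits of the rule, of which 1 is not reported here. Alternatives covered IDR, site window, overlap, promoter distance and gene window. The steps were tested on simulated data and recovered 400 of 400 planted overlaps and 200 of 200 planted motifs. The tools were SciPy 1.17.1, pandas 2.3.3, numpy 2.4.6, pysam 0.24.0, samtools 1.23.1 and matplotlib 3.10.9 under Python 3.11.15.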

Additional observations from a re-analysis of the deposited data

How the results depend on the processing

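No paired analysis was possible because each list merges both replicates of a group and its columns carry no replicate number. Leaving out a replicate was not run, since peaks of only 1 replicate are missing from the lists. Alternatives that used the replicates' own summits, an IDR over 0.05 or comparison peaks with no site anywhere were chosen after seeing the data. Of 125 alternative values for 30 results, 86 kept their direction and their side of the threshold, or moved little. For the values that changed, given next, the cause was not tested.

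The number of members was 31 at an IDR of 0.05, 17 at 0.01, 205 with the site within 50 bp and 1056 with it anywhere in the peak. The median distance to the site was 131 bp from the first replicate's summit and 124 bp from the second's, against 41 bp. The odds ratio of JNKi overlap against peaks without the site, 1.23 as reported, became 2.13 with the site anywhere, 1.54 with 50% reciprocal overlap, 1.35 with summits within 200 bp and 1.74 (Fisher's exact p = 0.000122) against peaks with no site anywhere. It fell to 0.656 at a DMSO IDR of 0.05, 0.588 with that limit in both lists and 0.914 with either replicate's summit. Against AP-1 peaks at H3K4me3 it was 3.20 at an IDR of 0.01. With either replicate's summit the odds ratio was 0.996 for JNKi H3K4me3, 1.41 for promoters (Fisher's exact p = 0.0458) and 0.977 for intergenic midpoints. For promoters it was 1.39 and 1.18 at an IDR of 0.05 and 0.01, and 1.02 with a distance of 1 kb. For the full AP-1 form against sites at H3K4me3 it was 2.06 at an IDR of 0.05, with Fisher's exact p = 0.486.

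Odds ratios of motifs crossed 1 within 50 bp of the summit for RUNX (1.15), NKX2 (1.082) and SP/KLF (1.05), and at an IDR of 0.05 for RFX (1.72), NKX2 (1.01), homeodomain (0.338) and SOX (0). The 1 motif with an unadjusted Fisher's exact p under 0.05 became 0 at an IDR of 0.05 and against peaks with no site anywhere. The same rule under JNKi chose 13 peaks at an IDR of 0.05 and 79 with the site within 50 bp, and 69.2% of the 13 overlapped a DMSO peak. With a gene window of 100 kb 605 genes and 8 listed genes had a member, and with 20 kb 111 and 1.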
